A study of Mus musculus with 30 samples.

Results

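Imprinted genes are read mainly or only from the copy inherited from 1 parent, and many of them act on growth. The set described here holds 10 of them, named by symbol (the choice was made with earlier results of these data known): H19, Igf2, Meg3, Rian, Mirg, Dlk1, Cdkn1c, Peg3, Grb10 and Plagl1, out of 56951 gene symbols in the tables. Each of the 10 symbols had 1 row. In the gastrocnemius muscle 7 of them passed the expression filter (a mean over 20 reads and a mean over 0.5 FPKM, a read count scaled to exon length and library size) and were tested among 12030 genes. The other 3 did not: Mirg and Dlk1 had few reads, and Plagl1 had a mean of 22.1 reads but only 0.23 FPKM.

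The muscle came from male wild-type C57BL/6J mice that had been singly housed with a running wheel. All of them were first kept on a light-dark cycle and then in constant darkness. The LD group (n = 14) then lived 64 weeks under a light-dark schedule that stayed fixed, and the ADV group (n = 16) spent the same 64 weeks under a schedule that was moved forward by 8 h every 4 days. No genetic change separated the groups, and 1 library was made per mouse. Exon reads numbered 18875468.5 to 28512674 per library, and no library was a near copy of another. Each group began with 16 mice and 2 LD mice were lost on the way, so the LD values are those of the animals that remained. The 9 myofiber genes summed to 59059 to 80774 FPKM in the LD mice and 59526 to 79759 FPKM in the ADV mice, so the defining genes of the labelled tissue were abundant. Slow-fiber genes varied widely between mice, from 68.2 to 1210 FPKM in LD and 304 to 2395 FPKM in ADV. The mice also differed by group in the clock genes. At an edgeR FDR under 0.05, 7 of 8 genes in a list led by Dbp and Nr1d1 were lower in ADV (all genes: 5.2%). By the same call 3 of 5 genes in a list with Bmal1, Cry1 and Nfil3 were higher (all genes: 5.61%). By direction alone, 0 of the 8 and 4 of the 5 were higher in ADV. By the study's methods the mice were sampled over several hours of the day, and the hour of each mouse is not given in the sources used here, so hour and schedule cannot be told apart in the clock genes or in any fit with their score as a covariate. Because whole muscle was sequenced, fewer cells of a type and less RNA per cell cannot be told apart.

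The 10 genes cover 2 well-known chromosome domains and some loci outside them. On mouse chromosome 7, H19 gives a noncoding RNA from the maternal copy and its neighbour Igf2 gives a fetal growth factor from the paternal copy, and both share enhancers. Further along the same chromosome lies Cdkn1c, which encodes the cell cycle inhibitor p57. On chromosome 12, the paternal copy gives Dlk1, a membrane protein that restrains differentiation, while the maternal copy gives the noncoding RNAs Meg3, Rian and Mirg, which carry small nucleolar RNAs and microRNAs. Peg3 encodes a zinc finger protein, Grb10 an adaptor that damps insulin and IGF receptor signalling, and Plagl1 a zinc finger transcription factor.

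The levels of the 10 genes spanned more than 3 orders of magnitude. H19 was the most abundant, at 148 ± 43.9 FPKM (mean ± SD, n = 30), and ranked at the 97.3 percentile of the genes tested. It was followed by Cdkn1c (8.57 FPKM), Grb10 (6.50 FPKM), Igf2 (3.38 FPKM), Peg3 (1.23 FPKM), Rian (1.05 FPKM), Meg3 (0.552 FPKM), Plagl1 (0.233 FPKM), Dlk1 (0.0652 FPKM) and Mirg (0.0539 FPKM). Levels were compared as FPKM of the counted rows. H19 lay above Cdkn1c, Grb10 above Igf2, Igf2 above Peg3, Rian above Meg3 and Meg3 above Plagl1 in 30 of 30 mice. Mean reads were higher for Meg3 (195) than for Rian (81.1), on a row of 14539 against 3172 bases. The order was less firm elsewhere. Cdkn1c lay above Grb10 in 27 of 30 mice and Plagl1 above Dlk1 in 29 of 30 mice, while Peg3 exceeded Rian in 19 of 30 mice and Dlk1 exceeded Mirg in 17 of 30 mice, so neither of the last 2 pairs was separated beyond the spread between mice.

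**Figure D1:**
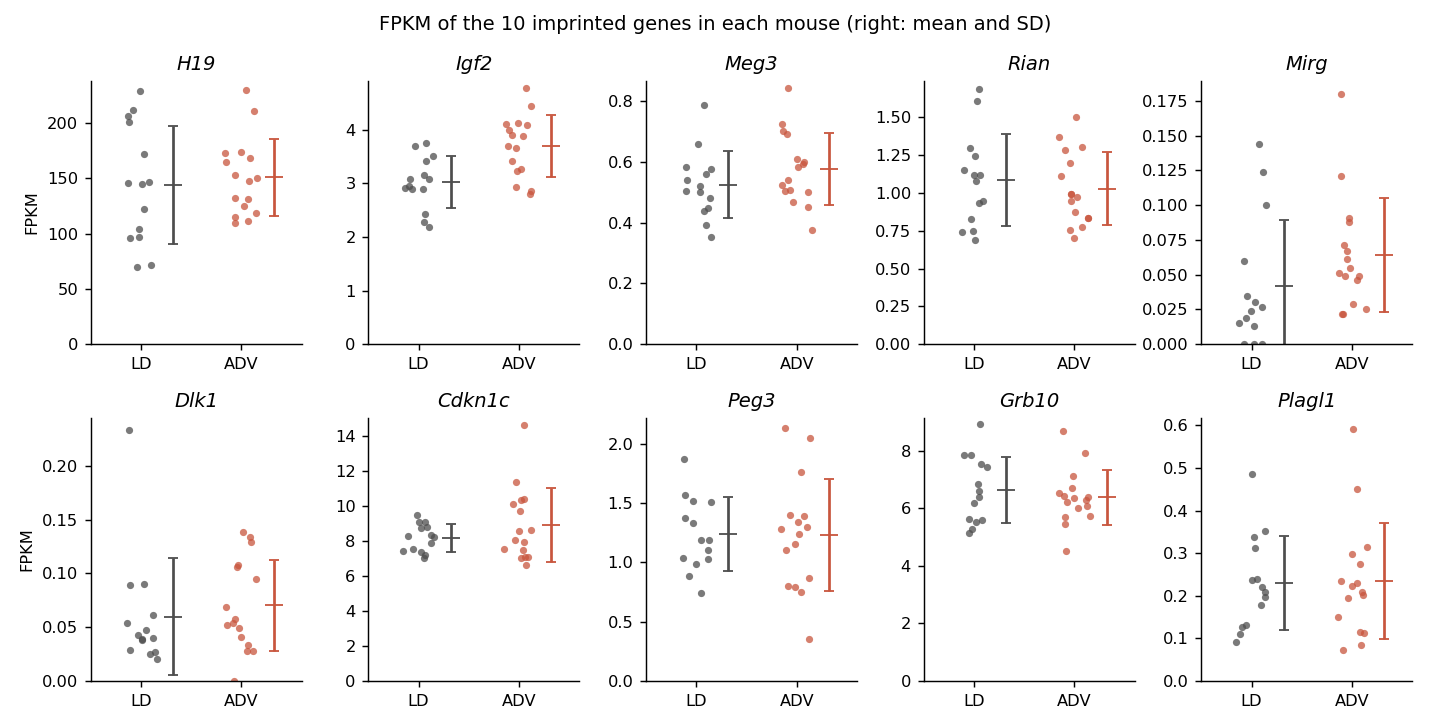
FPKM of the 10 imprinted genes in each mouse (points), LD in grey and ADV in red, with the mean and SD at the right of each group (lower bars are cut at 0). Both groups overlapped for every gene, and Igf2 had 8 of 16 ADV mice above the highest LD mouse.

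Of the 7 genes tested, 1 passed an FDR of 0.05 between ADV and LD, against 10.8% of all 12030 genes, so the share among the imprinted genes was near the background. That gene was Igf2, which was higher in ADV, as were 5.61% of all genes by the same call. By edgeR 0 of the 7 were DEGs (FDR under 0.05 and fold change over 1.3), against 2.09% of all genes, and DESeq2 also gave 0 DEGs and 1 gene past the FDR, Igf2 (FDR = 0.0353). By edgeR's unadjusted p under 0.05 Igf2 was again the only gene, against 30.1% of all genes. The median log2 fold change of the 7 genes was 0.05, beside 0.00 for all genes tested.

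**Figure D2:**
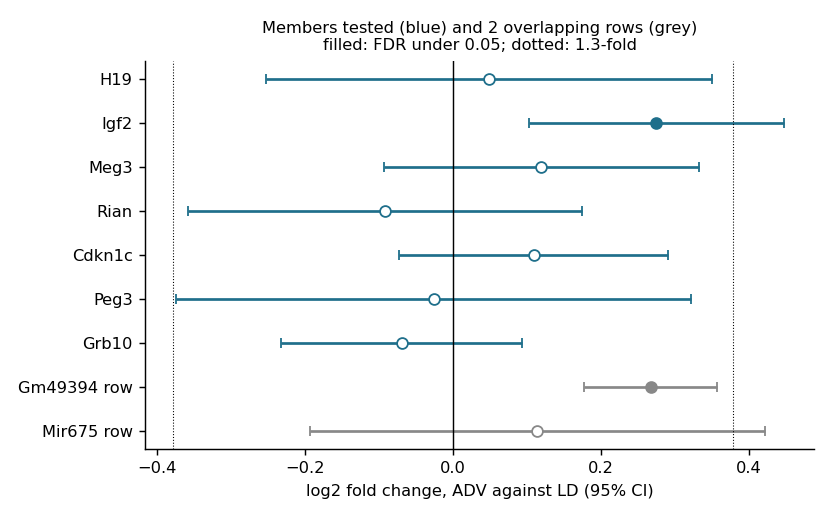
Log2 fold change of ADV against LD with its 95% confidence interval for the 7 imprinted genes tested (blue) and for 2 rows that lie on Igf2 and H19 exons (grey). Filled points had an FDR under 0.05, and the dotted lines mark a fold change of 1.3. Only Igf2 and Gm49394 lay clear of 0.

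Igf2, the growth factor, was the member that passed the test, by a margin that several other fits did not keep. Its level ran from 2.19 to 3.76 FPKM in the LD mice (median 3.01) and from 2.81 to 4.78 FPKM in the ADV mice (median 3.79). The groups overlapped, but 13 of 16 ADV mice lay above the LD median, 8 lay above the highest LD mouse, and 3 LD mice lay below the lowest ADV mouse. The mean rose from 3.02 ± 0.485 FPKM to 3.70 ± 0.576 FPKM, a log2 fold change of 0.27 (SE 0.085, 95% CI 0.10 to 0.45), or 1.21-fold (edgeR, FDR = 0.0347), and the rank-sum test of FPKM gave p = 0.0042 (100000 permutations, two-sided, unadjusted). Only 37.5 to 70.5 reads per mouse fell on this row, so counting error alone gives an SD of 0.20 on the log2 scale. The FDR passed 0.05 on leaving out LD mouse 28 (0.0557), 33 (0.0544), 34 (0.0558) or 35 (0.0522) or ADV mouse 24 (0.0516) or 29 (0.0520), with the log2 fold change between 0.24 and 0.30 in all 30 such fits. After removal of each library's GC content trend the log2 fold change was 0.17 (FDR = 0.248), and with the score of clock genes as a covariate it was 0.31 (FDR = 0.288), an edgeR fit in which 0 of 12030 genes passed and 1581 had an unadjusted p under 0.05. DESeq2, run without that covariate, called 1679. The call also ended with the replicate block (FDR = 0.0756), the slow-fiber score as a covariate (FDR = 0.0591) and no filter on low genes (FDR = 0.0940).

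The Igf2 row covers little of the gene. It is a transcript of 643 bases in the table, on the minus strand of chromosome 7 (GRCm39, 142207493 to 142220553), and holds 10.5% of the exon bases that GENCODE vM39 gives to Igf2. Much of the remaining exon sequence was counted on another row, Gm49394 (142204506 to 142223679, same strand), of which 75.9% of the exon bases are Igf2 exon and which covers 58.4% of the Igf2 exon bases. The 2 rows share 609 bases, so their reads cannot be fully separated. Gm49394 was picked for this overlap after its values were seen, and is no member of the set.

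Gm49394 was read more deeply, at 244.5 to 414.5 reads per mouse, and gave a clearer separation than the Igf2 row. It ran from 2.12 to 3.06 FPKM in the LD mice (median 2.48) and from 2.72 to 3.46 FPKM in the ADV mice (median 3.12). All 16 ADV mice lay above the LD median, 9 lay above the highest LD mouse, and 10 of 14 LD mice lay below the lowest ADV mouse. The mean was 2.56 ± 0.272 FPKM in LD and 3.11 ± 0.217 FPKM in ADV, a log2 fold change of 0.27 (SE 0.044, 95% CI 0.18 to 0.36), or 1.20-fold, with an FDR of 0.00101 in edgeR, rank 12 of 12030 genes by p. This call held on leaving out any 1 library (FDR 5.1e-04 to 0.0025) and after removal of the GC content trend (log2 fold change 0.21, FDR = 0.00683), but not with the clock score as a covariate (0.26, FDR = 0.151). Igf2 mRNA and a separate Gm49394 transcript cannot be told apart in these reads.

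Some markers of other cell types were also higher in ADV, the group in which Igf2 and Gm49394 were higher. Of all 12030 genes, 5.61% passed the FDR and were higher and 5.2% passed it and were lower, with a median log2 fold change of 0.00. Fitted log2 fold changes were above 0 for 9 of 9 Schwann cell genes (median 0.45, 1 past the FDR, Ncmap), 8 of 8 adipocyte genes (median 0.44, 1 past the FDR, Fabp4) and 9 of 9 slow-fiber genes (median 0.45, 0 past the FDR in edgeR). They were above 0 for 8 of 10 endothelial genes (median 0.09, with Pecam1 at FDR = 0.0323 and Emcn at FDR = 0.00945) and 7 of 9 mural cell genes (median 0.20, with Tagln at FDR = 0.0328), and for only 1 of 9 leukocyte genes (median -0.29, 0 past the FDR). All 6 satellite cell genes tested were above 0 (median 0.10, 1 past the FDR). In the denervation list 6 of 8 were (median 0.04, 1 past the FDR and higher). Only 2 of 9 fibroblast genes were above 0 (median -0.09, 1 past the FDR and lower). In every list the summed levels of the groups overlapped, and no marker of these lists was at 0 in all mice: the sums were 28.8 to 53.3 FPKM in LD and 30.8 to 91.4 FPKM in ADV for Schwann cell genes, 632 to 1198 and 700 to 1728 FPKM for adipocyte genes, 88.7 to 126 and 104 to 139 FPKM for endothelial genes, 135 to 181 and 136 to 196 FPKM for mural cell genes, and 111 to 427 and 106 to 211 FPKM for leukocyte genes. Their part in the Igf2 and Gm49394 values was not tested. Within the groups, none of the marker lists had an adjusted p under 0.05 with either row, and the lowest unadjusted p was that of the endothelial list with Igf2 (r = 0.37, permutation p = 0.0508, n = 30).

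**Figure D3:**
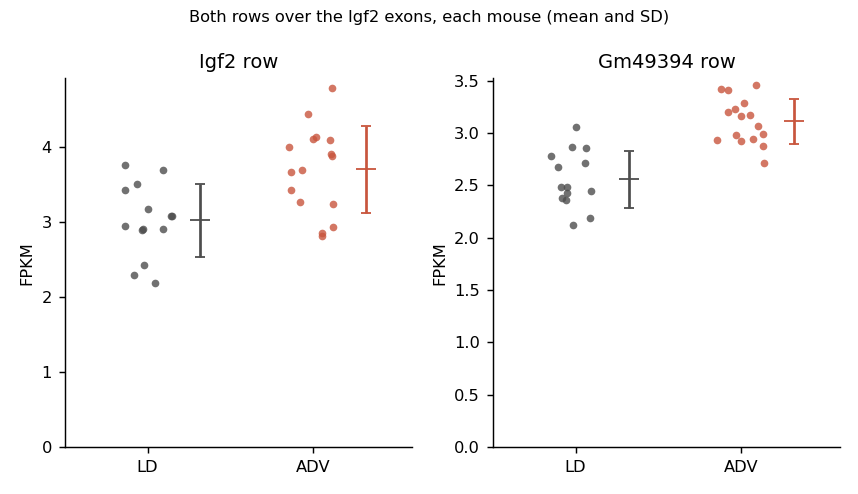
FPKM of the Igf2 row and of the Gm49394 row, which covers 58.4% of the Igf2 exon bases, in each LD (grey) and ADV (red) mouse with mean and SD. All 16 ADV mice lay above the LD median of Gm49394, and 13 of 16 did for Igf2.

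H19, the maternal noncoding RNA beside Igf2, did not pass the test. It ran from 69.5 FPKM (LD mouse 33) to 229 FPKM (LD mouse 29) in the LD group, with a median of 145, and from 110 FPKM (ADV mouse 26) to 230 FPKM (ADV mouse 24) in the ADV group, with a median of 149. The LD mice spread over the wider range, and 5 of them, with LD mice 33 and 23 lowest, lay below every ADV mouse. The means were 144 ± 53.4 and 151 ± 35.03 FPKM, a log2 fold change of 0.05 (SE 0.148, 95% CI -0.25 to 0.35, edgeR FDR = 0.855), and the rank-sum p was 0.499. The sign turned without LD mouse 23 (-0.0074) or LD mouse 33 (-0.0040), with the GC content trend removed (-0.0224) and with the clock score (-0.14) or the slow-fiber score (-0.11) as a covariate. H19 had 2475.5 to 8583 reads per mouse.

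H19 is also the host of a microRNA, miR-675, whose hairpin lies in exons of other H19 transcripts but outside those of the H19 row. Its 2 mature arms lie within the hairpin that the Mir675 row covers and are shown with the seed (bases 2 to 8) in capitals. They come from RefSeq and match chromosome 7 of GRCm39 on the minus strand at chr7:142130849-142130870 (5p) and chr7:142130815-142130836 (3p).
mmu-miR-675-5p: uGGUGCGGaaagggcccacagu
mmu-miR-675-3p: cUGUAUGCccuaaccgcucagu
The arms have different seeds. In these poly(A)-selected libraries the Mir675 row, 83 bases long, counts fragments of long RNA over the hairpin and not the mature arms. It ran from 90.5 to 325 FPKM in LD and from 156 to 330 FPKM in ADV, with a log2 fold change of 0.11 (SE 0.151, edgeR FDR = 0.645). Mir675 was the row most like H19 between mice, with r = 0.98 of log2 CPM (counts scaled to library size, with no length correction) after subtraction of the group means (n = 30). The 2 rows share 0 exon bases, but the H19 row holds only 52.9% of the GENCODE exon bases of H19. All of the Mir675 row (100%) lies on H19 exons, so this likeness is not one between 2 separate genes.

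H19 varied with the slow-fiber genes between mice. Its level followed the mean of 9 slow-fiber genes with a group-centred Pearson r of 0.79 (p = 1e-05, the smallest that 100000 permutations can give, and 5.4e-04 after Benjamini-Hochberg adjustment over 108 relations of this kind) and a Spearman rho of 0.75 (adjusted permutation p = 0.0032). The r was 0.86 within LD, 0.61 within ADV and 0.66 without the 2 mice farthest from the median, in which the permutation p was 2.2e-04. The 2 LD mice lowest in H19 (23 and 33) were also lowest in the summed slow-fiber genes, at 68.2 and 140 FPKM, and ADV mouse 24, highest in H19, was highest in that sum, at 2395 FPKM. Within LD alone H19 also varied inversely with some lists of other cell types. The r was -0.87 for fibroblast, -0.77 for leukocyte and -0.76 for adipocyte genes, while within ADV these were 0.22, 0.13 and 0.14. Pooled over the groups they were -0.40, -0.53 and -0.31 (adjusted permutation p = 0.174, 0.117 and 0.259), and without the 2 farthest mice of each they were -0.65 (unadjusted permutation p = 5.4e-04), -0.31 and -0.52. With endothelial and denervation genes r was positive, at 0.60 and 0.53 within LD and 0.17 and 0.27 within ADV. Over both groups these were 0.47 and 0.38 (adjusted permutation p = 0.158 and 0.174). The lists of Schwann, mural and satellite cell genes had r of 0.33, 0.14 and 0.17 over both groups. The part of these cells, or of denervation, in the H19 values was not tested.

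The single genes showed the same pattern. All 9 slow-fiber genes had an r between 0.70 (Myh7, slow myosin) and 0.78 (Myl2, a slow myosin light chain) with H19. The myofiber list, which holds 3 fast myosins beside general muscle genes such as Acta1, Ckm and Ttn, was split. Myh4, the myosin of the fastest fibers, had an r of -0.83 and ranked 12028 of 12029 genes, whereas Myh2, the myosin of fast oxidative fibers, had an r of 0.80 and Myh1 one of 0.61. The mean of the 9 myofiber genes gave r = -0.66 (adjusted permutation p = 0.0014), although 2 of the 9 had a positive r. After Mir675 the genes most like H19 were the metabolic genes Ldhb (0.94), Mdh1 (0.93), Acaa2 (0.92) and Idh2 (0.92), which encode a lactate dehydrogenase subunit, a malate dehydrogenase, a thiolase of fatty acid oxidation and an isocitrate dehydrogenase. The single myosin genes were named after their values were seen. The part of fiber composition in the H19 values was not tested beyond the covariate above. None of the other 6 genes tested reached an adjusted p under 0.05 with any of the 10 marker lists.

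**Figure D4:**
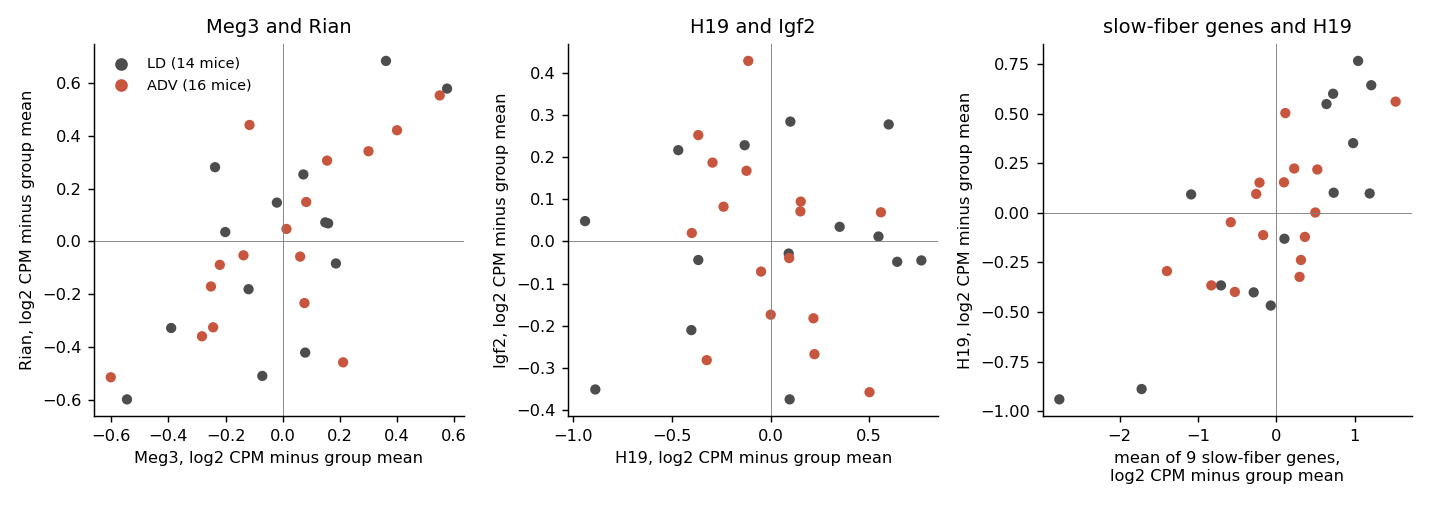
Between-mouse co-variation of log2 CPM after subtracting each group's mean, for Meg3 and Rian (left), H19 and Igf2 (middle), and the mean of 9 slow-fiber genes and H19 (right), LD in grey and ADV in red. Group-centred r was 0.69, -0.01 and 0.79, and 2 LD mice sit at the lower left of the right panel.

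H19 and Igf2 share enhancers, and their levels were compared between mice for that reason. No co-variation was detectable at this depth: the group-centred r was -0.01 (permutation p = 0.964, rho = -0.08, permutation p = 0.686, n = 30), 0.23 within LD (adjusted permutation p = 0.521) and -0.39 within ADV (adjusted permutation p = 0.229). Without LD mice 23 and 33 it was -0.17. By this measure Igf2 ranked 5832 of 12029 genes for likeness to H19. The deeper Gm49394 row had r = 0.13 with H19 and 0.41 with Igf2. The genes most like Igf2 reached r of 0.60 at most and were Snapc3, Dip2a, Tjp1, ENSMUSG00000121485 and Colgalt2.

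In the chromosome 12 domain, neither Meg3 nor Rian passed the test between the groups. Meg3, a long noncoding RNA, ran from 0.352 to 0.786 FPKM in LD (median 0.512) and from 0.375 to 0.842 FPKM in ADV (median 0.562). LD mouse 34 and ADV mouse 31 were lowest in their groups and LD mouse 23 and ADV mouse 33 were highest, with wide overlap. The log2 fold change was 0.12 (SE 0.104, 95% CI -0.09 to 0.33, edgeR FDR = 0.460), and the rank-sum p was 0.167. Rian, which carries a cluster of small nucleolar RNAs, ran from 0.686 to 1.69 FPKM in LD (median 1.10) and from 0.699 to 1.50 FPKM in ADV (median 0.979), so that all ADV mice lay below the highest LD mouse. Its log2 fold change was -0.09 (SE 0.131, 95% CI -0.36 to 0.17, FDR = 0.668), and the rank-sum p was 0.813.

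The Meg3 and Rian rows differ in how much of the genes they cover. The Meg3 row is 14539 bases long and holds 75.4% of the GENCODE exon bases of Meg3, while the Rian row of 3172 bases holds 10.1% of those of Rian. The rows start at 109511281 and 109570409 on chromosome 12 of GRCm39. A RefSeq promoter window of Meg3, upstream of the counted row, is shown because the maternal noncoding RNAs of this domain are usually regarded as read from the Meg3 side. It runs from 250 bases before to 50 bases after the annotated start, on the plus strand at chr12:109506629-109506928 of GRCm39, with the cyclic AMP response element TGACGTCA in capitals.
Meg3 promoter: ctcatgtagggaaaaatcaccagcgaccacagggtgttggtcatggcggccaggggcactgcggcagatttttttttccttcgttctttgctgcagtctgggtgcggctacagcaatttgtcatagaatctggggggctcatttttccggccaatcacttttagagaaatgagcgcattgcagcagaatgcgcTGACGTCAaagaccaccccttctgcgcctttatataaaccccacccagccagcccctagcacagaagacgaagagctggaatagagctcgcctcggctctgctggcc
The motif reads the same on both strands. Of the 13 RefSeq windows of the 8 members that had any, 2 held it, the Meg3 window shown and that of Peg3. Of all 32851 windows of that length, 1.79% did. The other Meg3 window, at chr12:109511031-109511330 over the start of the counted row, did not hold it. A match describes letters and not binding.

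Meg3 and Rian rose and fell together between mice. The group-centred r was 0.69 (permutation p = 4e-05, adjusted p = 4.8e-04 over 12 relations) and rho was 0.62 (adjusted permutation p = 0.00468), with r = 0.69 within LD (adjusted permutation p = 0.0272) and r = 0.69 within ADV (adjusted permutation p = 0.0187). The pooled r was 0.60 without LD mouse 34 and ADV mouse 31. Within single groups the relation leaned on the extreme mice, since r was 0.45 in LD without mice 23 and 34 (permutation p = 0.145) and 0.49 in ADV without mice 31 and 33 (permutation p = 0.0769). Meg3 was the gene most like Rian of 12029, and Rian was the fifth most like Meg3 after Shmt1 (0.73), D430041D05Rik (0.72), Ces1d (0.72) and Cpxm1 (0.70). Gm49394, on the Igf2 exons, had r = 0.57 with Meg3 and 0.62 with Rian, values seen after the fact and given with no test.

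Mirg, the third noncoding RNA of the domain and the host of many microRNAs, was near the detection limit. It had 0 to 12.5 reads per mouse in LD (median 2.25, 3 mice at 0) and 2 to 16.5 reads in ADV (median 4.75, no mouse at 0), so 13 of 16 ADV mice lay above the LD median. LD mouse 23 and ADV mouse 33, which were highest in Meg3, were also highest in Mirg. The rank-sum p of FPKM was 0.0565, and a fit without the expression filter gave a log2 fold change of 0.56 (edgeR FDR = 0.515). Omitting any of 7 mice (LD 21, 22, 23 or 28, ADV 30, 31 or 36) brought the rank-sum p under 0.05, with a range of 0.0182 to 0.0985 over all 30 omissions. The group-centred r of Mirg was 0.41 with Rian (adjusted permutation p = 0.0938) and 0.25 with Meg3 (adjusted permutation p = 0.252), with a counting SD of 0.65 on the log2 scale.

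Dlk1, the paternal coding gene of the domain, was as low. It had 2 to 25 reads per mouse in LD (median 4.75) and 0 to 17 reads in ADV (median 6.5), with 1 ADV mouse at 0. The highest LD mouse was again mouse 23, and 11 of 16 ADV mice lay above the LD median but none above that mouse (rank-sum p = 0.200, edgeR without the filter log2 fold change 0.24, FDR = 0.729).

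Cdkn1c, the cell cycle inhibitor, had similar medians but a wider spread in ADV. LD mice ran from 7.02 to 9.48 FPKM (median 8.27) and ADV mice from 6.61 to 14.6 FPKM (median 8.33). ADV mouse 32 was highest, 6 of 16 ADV mice lay above the highest LD mouse, and the SD was 0.786 FPKM in LD and 2.11 FPKM in ADV, a difference in spread that was not tested. The log2 fold change was 0.11 (SE 0.089, 95% CI -0.07 to 0.29, edgeR FDR = 0.426), the rank-sum p was 0.607, and the sign turned with the GC content trend removed (-0.0015). The row shares 30.5% of its exon bases with Gm44732 on the other strand. The genes most like Cdkn1c were Crip3 (0.65), Rnaset2a (0.65), Hoxd9 (0.64), Gm49673 (0.61) and Cpsf4 (0.60).

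Peg3, the paternally expressed zinc finger gene, varied most of the 7 between mice and did not pass the test between the groups. It ran from 0.738 to 1.87 FPKM in LD (median 1.19) and from 0.352 FPKM (mouse 34) to 2.13 FPKM (mouse 35) in ADV (median 1.26). Both ends of the whole range were thus ADV mice. The log2 fold change was -0.03 (SE 0.171, 95% CI -0.38 to 0.32, edgeR FDR = 0.935), the rank-sum p was 0.951, and the sign turned with the clock score (0.03) or the slow-fiber score (0.01) as a covariate and in some of the fits without 1 mouse. Peg3 moved with each library's trend of expression with transcript length (r = 0.65, adjusted permutation p = 0.0883), and this r fell to 0.18 without the 2 farthest mice. Whether that trend has a part in its spread was not tested. The genes most like Peg3 were Sema3c (0.80), Akap13 (0.79), Atl3 (0.78), Kidins220 (0.77) and Herc2 (0.77).

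Grb10, the inhibitor of insulin and IGF receptor signalling, lay at the 61.5 percentile of all genes tested in spread between mice, sixth of the 7. It ran from 5.15 to 8.94 FPKM in LD (median 6.50) and from 4.53 to 8.69 FPKM in ADV (median 6.33), and no ADV mouse lay above the LD range. The log2 fold change was -0.07 (SE 0.080, 95% CI -0.23 to 0.09, edgeR FDR = 0.587), and the rank-sum p was 0.760. The genes most like it were Map4k3 (0.74), Slc35e2 (0.74), Cnn3 (0.71), Hcn4 (0.71) and Acta2 (0.70). Plagl1, the zinc finger factor, had 10 to 47.5 reads per mouse in LD (median 19.75) and 7 to 48 reads in ADV (median 20.25), and the 2 groups covered nearly the same range (rank-sum p = 0.862, edgeR without the filter log2 fold change 0.00, FDR = 0.994).

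The spread between mice differed among the 7 genes. The SD of group-centred log2 CPM lay at the 95.7 percentile of all genes tested for Peg3, at 92.3 for H19, 86.6 for Rian, 76.5 for Meg3, 66.0 for Cdkn1c, 61.5 for Grb10 and 56.4 for Igf2. The counting SD of H19 was only 0.020 on the log2 scale, beside a measured SD of 0.44. For Igf2 the measured SD was close to the counting SD, and its biological coefficient of variation in edgeR was 0.103, at the 34.8 percentile. Igf2 was thus the least variable of the 7 by that measure, Peg3 (0.320) and H19 (0.281) the most.

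**Figure D5:**
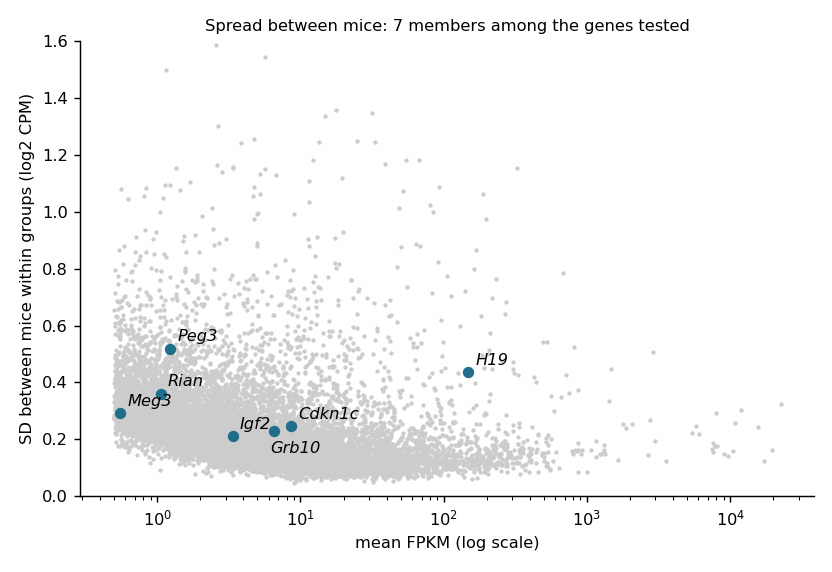
SD between mice within groups of log2 CPM against mean FPKM (log scale) for all genes tested (grey; 2 genes lie above the axis) and the 7 imprinted genes tested (blue). Peg3 (95.7 percentile) and H19 (92.3 percentile) had the widest spread of the 7.

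The genes around the 2 domains were read in the same fit. In the H19, Igf2 and Cdkn1c neighbourhood 0 of 9 genes tested passed an FDR of 0.05 in edgeR, and DESeq2 also called 0. By edgeR's unadjusted p under 0.05 there were 2 of the 9, Nctc1 and Tssc4, against 30.1% of all genes. The median log2 fold change of the 9 was 0.05. Nctc1, a noncoding RNA next to H19, was at 37.9 ± 3.95 FPKM in LD and 34.4 ± 4.05 FPKM in ADV (log2 fold change -0.15, SE 0.061, FDR = 0.0894), the opposite sign to Igf2. Phlda2 was at 0 reads in all 30 mice. In the Dlk1-Meg3 neighbourhood 1 of 6 genes passed (10.8% of all genes did), Slc25a29, a mitochondrial carrier of basic amino acids, which rose from 2.96 ± 0.661 to 3.86 ± 0.853 FPKM (log2 fold change 0.36, SE 0.110, FDR = 0.0316). That call ended on leaving out LD mouse 27 (FDR = 0.0508), LD mouse 28 (0.0567) or ADV mouse 34 (0.0517), and with the GC content trend removed (0.204), the slow-fiber score (0.0733), the clock score (0.373) or no filter (0.0642). Rtl1, the paternal gene opposite the noncoding RNAs, had 0.87 reads per mouse.

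Among 28 other imprinted genes tested, 0 rose and 1 fell (all genes: 5.61% higher and 5.2% lower), with a median log2 fold change of 0.01. By edgeR's unadjusted p under 0.05 there were 7 of the 28, against 30.1% of all genes, and DESeq2 called 1 higher and 1 lower. In edgeR 1 gene was also called higher on leaving out LD mouse 21 or 23 or ADV mouse 22, 29, 30, 31, 35 or 36. The number called lower ran from 0 to 2 in the fits without 1 mouse. The 1 that fell in edgeR was Phactr2, a regulator of phosphatase 1 and actin, which went from 8.59 ± 0.591 to 7.89 ± 0.766 FPKM (log2 fold change -0.14, SE 0.044, FDR = 0.0373). That call ended on leaving out LD mouse 22, 30, 32, 35 or 36 or ADV mouse 24, 25 or 35 (FDR 0.0253 to 0.0646 in 30 fits), and with library size alone (0.0793), no filter (0.121), limma on log2(FPKM + 0.1) (0.0809) or log2(FPKM + 1) (0.0793), the replicate block (0.0922), the clock score (0.433) and the GC content trend removed (0.269). The largest fold change was that of Mest, a paternally expressed hydrolase gene, at 0.494 ± 0.317 FPKM in LD and 1.16 ± 1.31 FPKM in ADV (log2 fold change 1.18, SE 0.402), which did not pass (FDR = 0.0524). Nnat, a proteolipid gene, was at 9.08 ± 6.81 and 15.4 ± 11.7 FPKM (0.74, SE 0.385, FDR = 0.194). The most abundant were Gnas (526 and 551 FPKM), Snurf (38.4 and 41.0 FPKM) and Slc38a4 (26.8 and 23.4 FPKM), and none of these 3 passed.

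The receptors and regulators that IGF2 works through were compared next. Of 18 genes of the IGF and growth factor axis, 0 rose and 3 fell, against 5.2% of all genes lower in ADV. Igf1r, the receptor for IGF1 and IGF2, fell from 1.54 ± 0.223 to 1.28 ± 0.256 FPKM (log2 fold change -0.29, SE 0.092, edgeR FDR = 0.0402). Ghr, the growth hormone receptor, fell from 28.9 ± 2.22 to 25.5 ± 3.31 FPKM (-0.20, SE 0.053, FDR = 0.0167). Nedd4, a ubiquitin ligase that binds Grb10, fell from 88.9 ± 3.27 to 77.6 ± 7.57 FPKM (-0.21, SE 0.041, FDR = 0.00253). The Ghr and Nedd4 calls held on leaving out any 1 mouse (FDR 0.0086 to 0.033 and 0.0019 to 0.00525). With the clock score as a covariate, however, 0 genes of this list passed. With the replicate block, for the 28 mice with shared label numbers, or with the GC content trend removed, 2 genes of the list passed. The Igf1r call was lost on leaving out any 1 of 15 mice (LD 28, 29, 30, 31, 33 or 35, ADV 22, 24, 25, 26, 28, 31, 32, 33 or 34), over a range of FDR from 0.0244 to 0.0693 in 30 fits, and with no filter (0.0847), the slow-fiber score (0.0695) or the clock score (0.713).

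Igf2r, the imprinted receptor that clears IGF2, was at 13.7 ± 1.02 FPKM in LD and 12.7 ± 1.61 FPKM in ADV and did not pass (log2 fold change -0.13, SE 0.056, FDR = 0.126). Irs2, which had the largest fold change of the list, did not pass either (0.72, SE 0.295, FDR = 0.1002). The most abundant binding protein gene, Igfbp5, was at 105 ± 31.2 and 114 ± 20.2 FPKM (0.09, SE 0.116, FDR = 0.626).

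Cdkn1c was set beside the other CDK inhibitors, of which 5 were tested, 1 rose and 1 fell (all genes: 5.61% higher and 5.2% lower). Cdkn1a (p21) rose from 10.6 ± 3.78 to 20.7 ± 14.6 FPKM (log2 fold change 0.95, SE 0.271, edgeR FDR = 0.0241), and was at 0.04 (FDR = 0.969) with the clock score as a covariate. Its call also ended with the replicate block, the slow-fiber score, and limma on log2(FPKM + 0.1) or log2(FPKM + 1). In each of these fits 0 genes of the list passed. Cdkn1b (p27) fell from 4.25 ± 0.345 to 3.78 ± 0.473 FPKM (-0.18, SE 0.058, FDR = 0.0375), a call that ended on leaving out any 1 of 9 mice (LD 27, 30, 32, 33 or 34, ADV 22, 24, 25 or 28, FDR 0.0206 to 0.0662 in 30 fits), and with the replicate block (0.125), the clock score (0.471), the GC content trend removed (0.195) or no filter (0.0991), among other fits.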

How the data were processed

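Poly(A)-selected, stranded libraries of gastrocnemius muscle from 14 LD and 16 ADV mice were analysed, grouped by their labels. The authors used Trimmomatic for adaptors, STAR 2.7.10a for alignment (GRCm39) and HOMER 4.11 for counting on exons of UCSC canonical transcripts (versions per the labels), and they deposited raw counts and FPKM values for 57186 rows. The deposited values are estimated counts, since each mate counts as 0.5 read, so 14.83% of them were not whole and were rounded. FPKM were made by the authors as count per exon length and library total. Whether counting used the strand is not given in the sources used here, so genes on opposite strands that share bases are uncertain.

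The longest row with a mean over 20 reads was kept per symbol. Counts were compared in edgeR 4.0.16 (quasi-likelihood F test, TMM) in R 4.3.3, with Benjamini-Hochberg adjustment over 12030 genes. FPKM were compared by two-sided rank-sum tests with 100000 permutations, unadjusted over the 10 members. Co-variation used log2 CPM (prior count 2) with permutation within groups. Scores are means of standardized log2 CPM over a list. The clock score is the mean of the list with Bmal1 minus that of the list with Dbp. GC content was that of GENCODE vM39 transcripts, and promoter and microRNA sequences came from RefSeq tables and were matched to GRCm39. The promoter table held 8 of the 10 members.

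Named were the 10 members, the 5 genes most like each, and, of each gene list, those with FDR under 0.05, the 3 most abundant and the 3 with the largest change. The neighbourhood and marker lists could be named likewise. Members and lists were chosen with earlier results of these data known. Alternatives were DESeq2 1.42.0, limma 3.58.1, other size factors, filters, scales, covariates, a replicate block and leaving out each library. The slow-fiber covariate, the 28 mice without the block and the marker, GC and length relations were chosen after seeing the data. The tests were run on simulated data first. Mice of a group are separate animals. At 18875468.5 to 28512674 exon reads per library, genes with under about 20 reads, such as Mirg and Dlk1, carry a large counting error.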

Additional observations from a re-analysis of the deposited data

How the results depend on the processing

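The number of genes past an FDR of 0.05 (1301) became 629 without the filter, 494 with the replicate block, 616 for the 28 mice with shared label numbers and no block, 0 with the clock score (edgeR, 1581 at an unadjusted p under 0.05), 678 with the slow-fiber score and 600 with the GC trend removed, and ran from 835 (without LD mouse 28) to 1542 without single mice. The DEGs (252) became 124 with limma on log2(FPKM + 1), 137 with the block, 151 for the 28 mice, 0 with the clock score, 155 with the slow-fiber score and 167 with the GC trend removed, and 190 to 302 without single mice. Members past the FDR fell from 1 to 0 without the filter (Igf2, FDR = 0.0940), with the block (0.0756), with the clock score, with the slow-fiber score (0.0591) and with the GC trend removed, and were 0 to 1 without single mice. Members that were DEGs stayed at 0 throughout.

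Whether the label numbers pair the mice is not given in the sources used here. Of 14 same-numbered pairs, 6 had a correlation of deviations over 0.1 (range -0.26 to 0.43). In 3 of the pairs the LD mouse was most like the ADV mouse of the same number, so these values do not settle it. The replicate block gave Igf2 a log2 fold change of 0.29 and Gm49394 one of 0.27 (edgeR FDR = 0.0115).

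Signs turned for H19 (-0.137 with the clock score, -0.111 with the slow-fiber score, -0.0224 with the GC trend removed, and -0.0074 to 0.1155 without single mice), Mir675 (-0.0391, -0.0437 and -0.0593 in the same 3 fits), Cdkn1c (-0.0015, GC trend removed) and Peg3 (0.0168 for the 28 mice, 0.0268 with the clock score, 0.0148 with the slow-fiber score, and -0.0985 to 0.0417 without single mice). Without single mice the direction of the rank sum also turned for Rian (permutation p 0.551 to 1), Peg3 (0.713 to 1) and Plagl1 (0.627 to 0.992), none of which neared the threshold. The group-centred r of H19 and Igf2 was 0.105 on log2(FPKM + 0.1) and 0.0943 with library size alone, and -0.160 to 0.0709 without single mice. That of Meg3 and Rian was 0.646 to 0.753, and r of Meg3 and Mirg within LD was -0.167 to 0.291, without single mice. Relations past the adjusted threshold numbered 2 to 5 and members with a rank-sum p under 0.05 numbered 1 to 2 without single mice. Calls in the 5 gene lists numbered 7 and became 3 without the filter, with the block, with the slow-fiber score and with the GC trend removed, 4 with limma on either FPKM scale and for the 28 mice, 0 with the clock score, and 4 to 9 without single mice. The cause was not tested. Counting error limits Mirg, Dlk1 and Plagl1.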
